A study of Mus musculus with 4 samples.

Results

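Open chromatin was examined at 10 genes of the fibroblast growth factor (FGF) family in lymph node fibroblasts with and without a Notch2 deletion: the ligand genes Fgf1, Fgf2, Fgf7, Fgf9, Fgf10 and Fgf18 and the receptor genes Fgfr1, Fgfr2, Fgfr3 and Fgfrl1. The genes were chosen by name, with earlier results of these data known. Deposited windows of 300 bp were joined into 1 region where 100 bp or less separated them, and the window with the most counts stood for each region. A region was given to the protein-coding gene that its midpoint overlapped, or else to the nearest gene within 100 kb. By this rule 86 of 110110 regions belonged to the 10 genes, 43 to the 6 ligand genes and 43 to the 4 receptor genes, from 2 regions each for Fgf9 and Fgf10 to 25 for Fgfr2. All 86 were tested, with no further filter on low counts. In 17 of them the midpoint also lay inside another protein-coding gene. These were all 11 regions of Fgf1, inside Arhgap26, all 5 of Fgf7, inside Fam227b, and the last of Fgf2, inside Nudt6. Values given for Fgf1 and Fgf7 are thus equally those of regions in Arhgap26 and Fam227b. The gene that a region acts on is not known from its position.

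ATAC-seq, in which a transposase cuts accessible DNA and so marks open chromatin, had been run on fibroblastic reticular cells (FRCs), the stromal cells that build the scaffold of the T cell zone, sorted from inguinal, axillary and brachial nodes as BP3hi Pdpn+ CD31- CD45- cells. The 2 control libraries came from Notch2 fl/fl mice and the 2 Notch2_cKO libraries from Ccl19-Cre x Notch2 fl/fl littermates, all labelled female, 12 weeks old and C57BL/6. Both groups carry the floxed Notch2 allele, and only the Notch2_cKO mice carry Cre, which the Ccl19 promoter drives in lymph node stroma, so that Notch2 is deleted only in cells with a history of that promoter's activity. Each library was 1 pool of 6 mice and 50000 sorted cells, so mouse-to-mouse spread cannot be seen, and n below is the number of pools.

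Best-window counts summed to between 12340742 (Notch2_cKO 2) and 30260067 (Notch2_cKO 1) per library. Control 2 stood apart from its label: regions at the Y-linked genes Ddx3y, Eif2s3y, Uty and Kdm5d held 656 counts in it, 2 in control 1 and 0 in both Notch2_cKO libraries, so results are also given without control 2. The region at the start of Notch2 does not show whether the gene was deleted, and its level was 55.3 and 57.5 normalized CPM (counts scaled to library size) in the controls and 55.2 and 46.2 CPM in Notch2_cKO (edgeR adjusted p = 0.341). Over all regions, 12.5% were higher in Notch2_cKO and 11.2% lower by the test described below. Among FRC markers, 7 of 9 genes had regions, with a mean level of 11.7 to 12.3 CPM per library. Of these 68 regions 7 were higher and 7 lower (10.3% each), while none was assigned to Ccl19 or Ccl21a. Of 6 leukocyte markers, 3 had regions, 8 in all, of which none passed the test and none lay at a gene end. Mural cell markers had 4 higher and 6 lower of 40 regions, and 3 of 21 epithelial marker regions passed the test, as lower. At blood endothelial markers 7 were higher and 3 lower of 44, at a mean level of 4.50 and 4.55 CPM in the controls and 5.27 and 4.83 CPM in Notch2_cKO. Of 41 lymphatic endothelial marker regions 7 were lower (17.1%, against 11.2% of all regions) and 0 higher. Their mean level was 5.20 and 4.82 CPM in the controls and 3.87 and 4.24 CPM in Notch2_cKO. The part of these other cell types in the values below was not tested. Fewer cells with an open region and less opening per cell cannot be told apart in pooled cells.

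FGF ligands are secreted proteins that bind receptor tyrosine kinases together with heparan sulfate, and the receptors signal through the adaptor Frs2 to the Ras cascade. Fgf7 and Fgf10 are known as mesenchymal ligands that act on the epithelial splice form of Fgfr2, while Fgf2 and Fgf1 bind many receptor forms, and Fgf9 and Fgf18 favour the mesenchymal forms. Fgfrl1 binds ligands but lacks a kinase domain.

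The starts of these genes differ in sequence. For 3 genes the 250 bases before the start lay wholly within a region and outside the annotated gene, and these are shown because Fgf7 was the gene whose start changed, as described below, while the Fgfr3 and Fgfrl1 starts did not pass the test. The sequences are from RefSeq (mm10), written 5′ to 3′ on the + strand of chr2:126034408-126034657, chr5:33721474-33721723 and chr5:108693979-108694228. Capitals mark matches on either strand to GGGCGG (the GC box) and to TGGGAA (the core of an Rbpj motif, Rbpj being the DNA-binding partner of Notch).
Fgf7: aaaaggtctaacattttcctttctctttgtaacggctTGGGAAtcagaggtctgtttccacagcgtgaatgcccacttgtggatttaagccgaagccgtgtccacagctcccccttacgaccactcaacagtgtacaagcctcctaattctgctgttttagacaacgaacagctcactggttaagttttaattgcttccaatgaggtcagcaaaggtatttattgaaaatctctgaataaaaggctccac
Fgfr3: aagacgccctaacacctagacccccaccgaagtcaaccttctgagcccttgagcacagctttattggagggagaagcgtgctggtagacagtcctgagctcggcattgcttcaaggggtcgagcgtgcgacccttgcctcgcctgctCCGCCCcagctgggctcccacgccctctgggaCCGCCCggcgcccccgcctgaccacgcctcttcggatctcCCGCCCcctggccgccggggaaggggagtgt
Fgfrl1: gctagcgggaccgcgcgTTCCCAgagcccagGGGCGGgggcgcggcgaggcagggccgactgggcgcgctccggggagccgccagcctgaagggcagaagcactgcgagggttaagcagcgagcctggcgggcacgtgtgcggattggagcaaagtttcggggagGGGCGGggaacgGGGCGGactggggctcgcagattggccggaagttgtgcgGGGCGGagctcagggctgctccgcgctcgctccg
The Fgf7 sequence is 43.6% G and C, less than the median of 52.4% over 32851 RefSeq promoter windows of the same length, and holds 0 GC boxes. GC content was 66.8% at Fgfr3 and 73.6% at Fgfrl1, with 3 and 4 GC boxes. Low GC content was not particular to Fgf7 among the 10 genes. The same windows at Fgf9 and Fgfr2, which did not lie wholly within a region, had 44.8% and 44.0% and 0 GC boxes. The regions nearest to those 2 starts did not pass the test. The GC box occurs in 32.7% of all such windows. The letters TGGGAA or their reverse complement occur once each in the Fgf7 and Fgfrl1 sequences shown and in 21.6% of all windows. None of the 3 sequences holds the AP-1 motif TGANTCA, which 6.75% of windows hold. The letters TATAAA, in 12.4% of windows, are absent from these sequences too. The motifs were searched on both strands and share no letters with each other here.

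The first comparison asked which FGF regions were more or less open in Notch2_cKO FRCs than in controls. Regions near the ligand genes Fgf18, Fgf2 and Fgf7 rose, by up to 3.50-fold, while Fgf1 and Fgfr1 each had more regions that fell than rose by edgeR. By DESeq2, Fgf1 and Fgfr1 each had 1 higher region and 0 lower ones. Fgf9 and Fgfrl1 had 0 changed regions under the main scaling, although the start of Fgfrl1 passed as lower under 2 other scalings. Their counts by edgeR were also 0 at an unadjusted p of 0.05, and 0 by DESeq2 and limma. Of the 86 regions, 23 were higher in Notch2_cKO (26.7%, against 12.5% of all regions) and 7 were lower (8.14%, against 11.2% of all regions), by edgeR's quasi-likelihood test with the Benjamini-Hochberg adjustment over all regions at 0.05. The median log2 change (Notch2_cKO over control) was 0.14 at the FGF genes, with a range from -1.32 to 1.81, and 0.0076 over all regions. Both Notch2_cKO libraries were above both controls in 39 of the 86 regions (45.3%, against 30.4% of all regions) and below both in 21 (24.4%, against 29.5%). In all 30 changed regions the groups did not overlap, as was so for 59.9% of all regions.

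Ligand and receptor genes had 43 regions each, and the difference between them was not tested. At ligand genes 18 regions were higher (41.9%) and 3 lower (6.98%), with a median log2 change of 0.25. At receptor genes 5 were higher (11.6%) and 4 lower (9.30%), with a median of 0.02. Over all regions the shares were 12.5% and 11.2%, so the receptor genes were near them. Fgf18 alone held 8 of the 18 higher ligand regions, and it lies on chromosome 11, where 20.2% of 6607 regions were higher and 5.62% lower. Without Fgf18 the ligand genes had 10 higher (29.4%) and 3 lower (8.82%) of 34 regions.

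Of the 9 FGF regions within 1000 bp of either end of their gene, 1 was higher, at Fgfr3, and 0 were lower (0 at an unadjusted p of 0.05). That is a changed share of 11.1%, against 10.2% of all assigned regions so close to a gene end. Among the other 77, 22 were higher and 7 lower (37.7% changed, against 24.7% of all assigned regions farther away). Of 53 regions inside the genes 9 were higher (17.0%) and 6 lower (11.3%), against 12.5% and 10.5% of all assigned regions inside genes. Outside the genes 14 of 33 were higher (42.4%) and 1 lower (3.03%), against 12.2% and 10.1% of all assigned regions there. Of these 14, 7 were at Fgf18 on chromosome 11, and without Fgf18 the regions outside numbered 7 higher and 1 lower of 26. Of the 62 regions within 10 kb of their gene, 11 were higher and 7 lower, so the lower regions all lay within that distance. By level, 10 of 23 regions between 5 and 15 CPM were higher (43.5%, against 15.6% of all regions at that level), 3 of 18 regions at 15 CPM or more (16.7%, against 8.98%), and 10 of 45 below 5 CPM (22.2%, against 12.2%). All 7 lower regions but 1 were below 5 CPM. The count of higher FGF regions was 13 without control 2 and 15 without control 1, and that of lower ones was 4 without control 2, 0 without control 1 and 3 without Notch2_cKO 1. DESeq2 called 11 higher and 0 lower, and 6 regions were called in all 10 fits that were made for single regions: 3 at Fgf2 and 1 each at Fgf18, Fgf7 and Fgfr1.

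**Figure D1:**
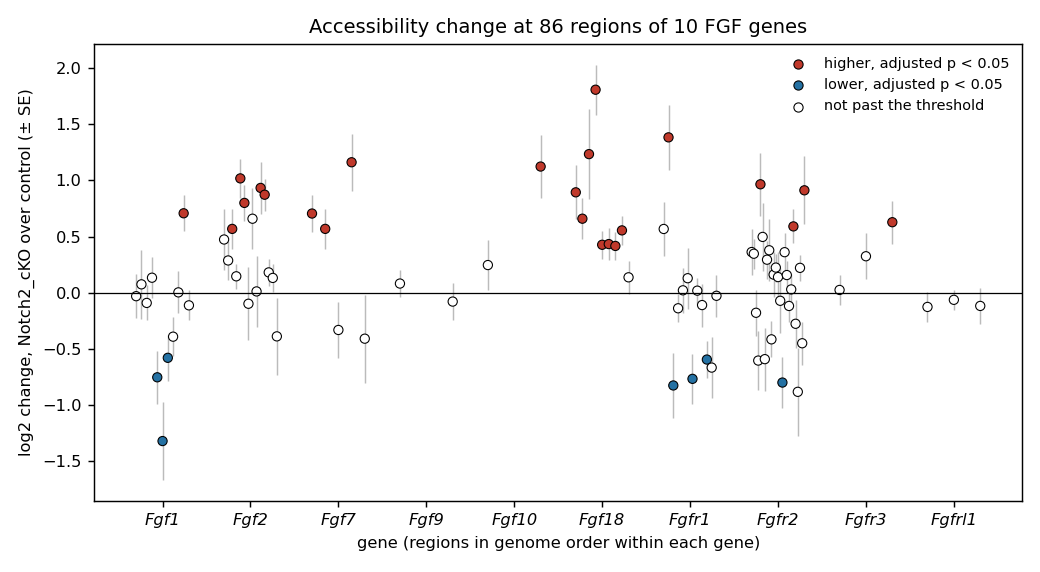
The log2 change of each of the 86 regions (Notch2_cKO over control, points) with its standard error (lines), in genome order within each gene. The values run from -1.32 at Fgf1 to 1.81 at Fgf18, and 23 regions are marked as higher and 7 as lower.

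Fgf18 is a ligand best known from skeletal and lung mesenchyme, and here it had the most uniform change: 8 of its 9 regions rose and all 9 had both Notch2_cKO libraries above both controls. The gene lies on the minus strand at chr11:33116970-33147400, and its regions, numbered in genome order here and for the other genes, reach 87870 bp beyond its end. The largest change was in region 4 at chr11:33089751-33090350, 26920 bp past the end of the gene. The Notch2_cKO pools gave 153 and 58 counts there and the control pools 29 and 36. After normalization the levels were 1.28 and 1.43 CPM in the controls against 4.96 and 4.48 CPM. Both Notch2_cKO libraries were above both controls, and the log2 change was 1.81 ± 0.22 (SE, n = 2 pools per group; edgeR adjusted p = 8.1e-06).

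Inside Fgf18, region 8 at chr11:33122601-33123250 held 18.3 and 17.3 CPM in the controls and 28.5 and 23.4 CPM in Notch2_cKO. The log2 change there was 0.56 ± 0.13 (edgeR adjusted p = 0.0037). The Fgf18 region with the highest level, region 7 at chr11:33104651-33105350, held 20.3 and 17.5 CPM in the controls against 24.7 and 25.9 CPM, a log2 change of 0.42 ± 0.13 (edgeR adjusted p = 0.020). Again the groups did not overlap, but the gap between them was smaller than at region 4. At the far end, region 1 at chr11:33028801-33029400 rose from 1.67 and 1.95 CPM to 3.84 and 2.63 CPM (log2 change 0.89 ± 0.24, edgeR adjusted p = 0.0097). By contrast, the region nearest the start, 1100 bp inside the gene, held 10.8 and 10.4 CPM in the controls and 10.9 and 12.6 CPM in Notch2_cKO and did not pass the test (log2 change 0.14 ± 0.15, edgeR adjusted p = 0.557).

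Among 44 regions assigned to other genes within 500 kb of Fgf18, 5 were higher and 2 lower (15.9% changed), with a median log2 change of -0.05, against 0.56 for the Fgf18 regions. Such counts of surroundings, here and below, leave out regions more than 100 kb from any protein-coding gene. Those with Fgf18 as their nearest gene lay 103970 to 125670 bp away. Their log2 changes were 0.36, -1.02, 0.41, 1.66 and 1.03 with growing distance, so the direction was mixed there. Leaving out control 2 gave adjusted p values of 6.8e-07 at region 4, 0.016 at region 1, 0.077 at region 8 and 0.343 at region 7, and 4 higher Fgf18 regions in place of 8. Without control 1 there were 3, with adjusted p values of 0.059 at region 1 and 0.069 at region 7. Without Notch2_cKO 1 there were 5, region 1 not among them (0.301), and DESeq2 called 2.

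Fgf2, the basic fibroblast growth factor and a broad fibroblast mitogen, rose at 5 of its 14 regions, and none fell. The gene lies at chr3:37348477-37410106 on the plus strand. Its start, at chr3:37348301-37348900, was the most open of its regions, with 29.1 and 29.1 CPM in the controls and 34.2 and 29.9 CPM in Notch2_cKO. Both Notch2_cKO libraries were above the controls there, but the difference of 0.15 ± 0.11 on the log2 scale was not past the threshold (edgeR adjusted p = 0.389).

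The changed Fgf2 regions lay mainly inside the gene. Region 5 at chr3:37354601-37355250, 6247 bp past the start, held 5.55 and 4.26 CPM in the controls and 9.42 and 10.6 CPM in Notch2_cKO (log2 change 1.02 ± 0.17, edgeR adjusted p = 0.00025). In region 6 at chr3:37360551-37361200, 12247 bp past the start, the levels were 7.23 and 6.86 CPM against 11.2 and 13.7 CPM (0.80 ± 0.16, edgeR adjusted p = 0.00097). Region 11 at chr3:37380351-37380900 went from 9.31 and 10.4 CPM to 18.8 and 17.1 CPM (0.87 ± 0.14, edgeR adjusted p = 0.00015). In these 3 regions the lower Notch2_cKO library was well above the higher control. All 3 passed the test with each single library left out, without control 2 at adjusted p values of 0.0084, 0.014 and 0.00074, and by DESeq2. The other 2 higher regions, region 3 before the start and region 10 inside the gene, had log2 changes of 0.57 and 0.93. Without control 2 their adjusted p values were 0.237 and 0.026, and region 3 did not pass without control 1 either (0.055). Regions 12 and 13, at 18.6 to 23.0 CPM, had log2 changes of 0.18 and 0.13 and did not pass. Within 500 kb, 3 of 41 regions assigned to other genes were higher and 4 lower, with a median log2 change of 0.09 against 0.38 at Fgf2.

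Fgf7, the keratinocyte growth factor, a stromal signal to epithelium, rose at 3 of 5 regions inside the gene (chr2:126034658-126091185, plus strand), and the region over its start rose too. That start region, chr2:126034251-126034950, has its midpoint 58 bp before Fgf7 and inside Fam227b, so the rule gave it to Fam227b and it is not counted among the 86. It was chosen for its position over the start after its values had been seen. It contains the Fgf7 sequence printed above and gave 253 and 298 control counts and 568 and 220 Notch2_cKO counts, or 11.2 and 11.7 CPM against 18.2 and 17.4 CPM. Both Notch2_cKO libraries were above both controls, by 0.64 ± 0.14 on the log2 scale (edgeR adjusted p = 0.0018), and the call held without control 2 (adjusted p = 0.023).

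Within Fgf7, region 1 at chr2:126039501-126040000, 5092 bp past the start, held 5.99 and 5.44 CPM in the controls and 9.58 and 8.94 CPM in Notch2_cKO (log2 change 0.71 ± 0.16, edgeR adjusted p = 0.0032). Region 4 at chr2:126062751-126063400 held 1.67 and 1.24 CPM against 2.87 and 3.86 CPM (1.16 ± 0.25, edgeR adjusted p = 0.0021). Region 2, at chr2:126040701-126041150, held 5.29 and 4.15 CPM against 7.35 and 6.43 CPM (0.57 ± 0.18, edgeR adjusted p = 0.027). The groups were apart in all 3, while the other 2 regions, at 0.520 to 2.17 CPM, had log2 changes of -0.33 and -0.41 and did not pass. Without control 2 the adjusted p was 0.062 for region 1, 0.337 for region 2 and 0.027 for region 4, and without Notch2_cKO 1 it was 0.163 for region 2. The surroundings of Fgf7 also held more higher than lower regions: 24 of 76 regions assigned to other genes within 500 kb were higher and 6 lower, with a median log2 change of 0.27 against 0.57 at Fgf7.

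**Figure D2:**
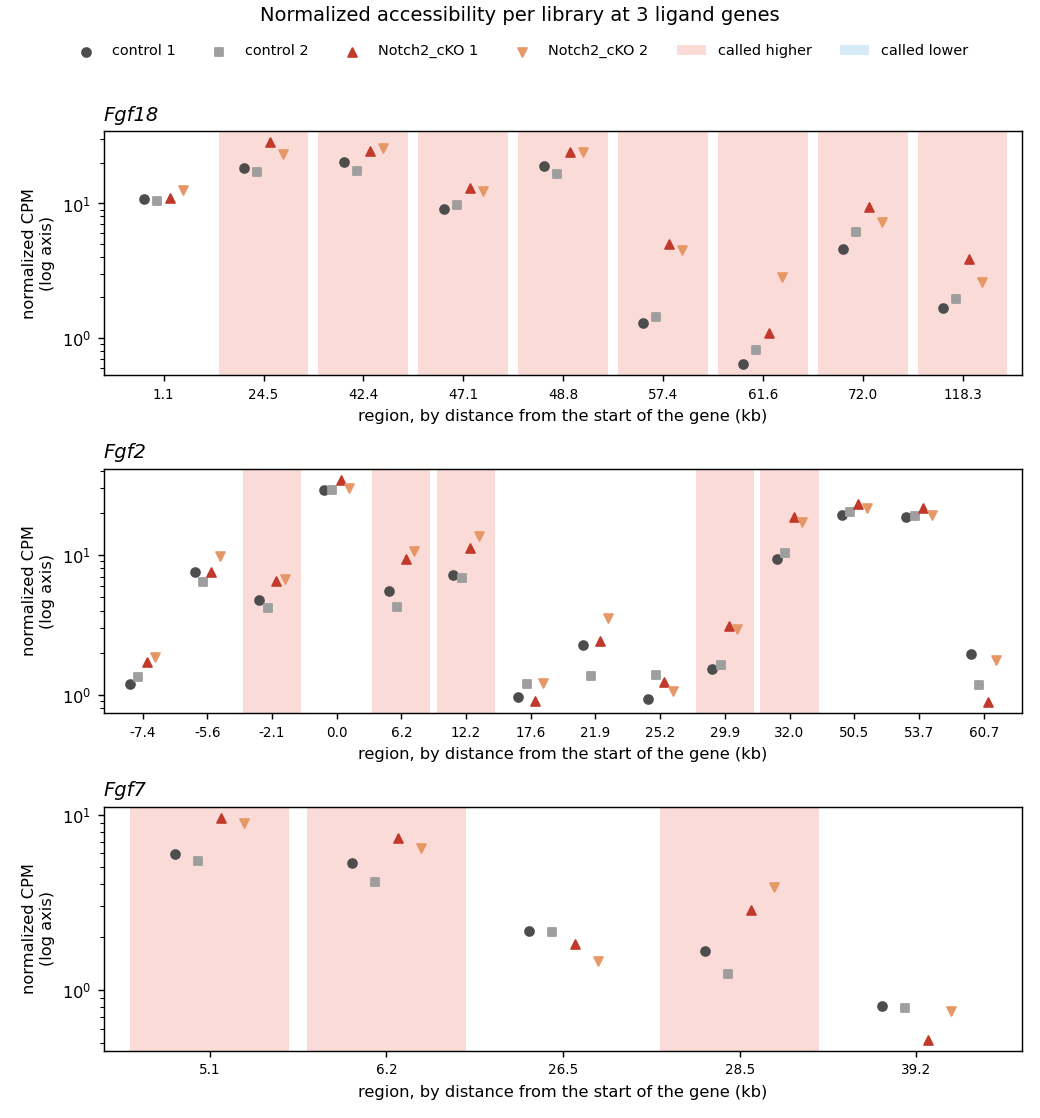
Normalized level (CPM, log axis) of every Fgf18, Fgf2 and Fgf7 region in each of the 4 libraries, ordered by distance from the start of the gene (kb). Shading marks regions called higher: 8 of 9 at Fgf18, 5 of 14 at Fgf2 and 3 of 5 at Fgf7, where the Notch2_cKO points lie above both controls.

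Fgf10 and Fgf9 had 2 regions each. Fgf10, the ligand that drives branching of lung and gland epithelium, had low levels (gene at chr13:118714699-118792573). Its region 1, inside the gene, held 2.43 and 2.71 CPM in the controls and 3.35 and 2.55 CPM in Notch2_cKO, and the groups overlapped (log2 change 0.25 ± 0.22, edgeR adjusted p = 0.465). Region 2, at chr13:118849551-118850050 and 57227 bp past the gene, held 0.965 and 2.00 CPM in the controls and 2.96 and 3.78 CPM in Notch2_cKO. It rose by 1.12 ± 0.28 on the log2 scale (edgeR adjusted p = 0.0059). The controls differed widely there, with an adjusted p of 0.097 without control 1 and 4.1e-05 without control 2. Of 12 regions assigned to other genes within 500 kb of Fgf10, 3 were higher and 2 lower, with a median log2 change of -0.07. Regions more than 100 kb from any protein-coding gene are again left out of that count. The nearest such regions had log2 changes of 1.63 and 0.39 before the Fgf10 regions and 1.35 and 1.32 after them. Another, 145499 bp from Fgf10, had a log2 change of -1.43. Fgf9, a ligand for mesenchymal receptor forms at chr14:58070671-58112854, held 20.5 and 21.6 CPM in the controls and 23.3 and 21.0 CPM in Notch2_cKO at its start, where the groups overlapped (0.08 ± 0.12, edgeR adjusted p = 0.688). Its region 41346 bp past the gene had a log2 change of -0.08 and did not pass. Of 31 regions assigned to other genes within 500 kb of Fgf9, 0 were higher and 4 lower, with a median log2 change of -0.13. Regions more than 100 kb away with Fgf9 as their nearest gene moved both ways. Their log2 changes ran from -1.72, at 508646 bp, to 2.11, at 390346 bp.

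Fgf1, the acidic fibroblast growth factor, moved both ways: 3 of its 11 regions in chr18:38838672-38929470 fell and 1 rose, and the median log2 change was -0.09. Region 6 at chr18:38903151-38903600 fell, from 1.50 and 1.28 CPM in the controls to 0.602 and 0.458 CPM in Notch2_cKO (log2 change -1.32 ± 0.35, edgeR adjusted p = 0.0085). The nearby regions 5 and 7 fell as well, from 3.20 and 2.71 CPM to 1.69 and 1.85 CPM and from 3.86 and 4.21 CPM to 2.66 and 2.78 CPM (log2 changes of -0.75 and -0.58, edgeR adjusted p = 0.024 and 0.044). In all 3 both Notch2_cKO libraries were below both controls, at low levels. Region 10 at chr18:38923001-38923700 rose, from 11 and 8.47 CPM to 14.4 and 17.8 CPM (0.71 ± 0.16, edgeR adjusted p = 0.0030). The region 270 bp from the higher-numbered end of the gene, with the highest level, held 20.1 and 24 CPM against 19.0 and 22.2 CPM (-0.11 ± 0.13, edgeR adjusted p = 0.601). Without control 2 the adjusted p was 0.024 for region 6, 0.038 for region 5, 0.239 for region 7 and 0.101 for region 10. Without control 1 none of the 3 lower regions passed (adjusted p values of 0.175 for region 5, 0.088 for region 6 and 0.094 for region 7), and without Notch2_cKO 1 region 5 (0.168) and region 7 (0.211) did not. With TMM factors region 7 was at 0.055.

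Among the receptor genes, Fgfr1, the main FGF receptor kinase of fibroblasts, had 3 lower and 1 higher of 12 regions and a median log2 change of -0.07. It lies at chr8:25518759-25575718. The higher region, region 2 at chr8:25505801-25506350 and 12759 bp outside the gene, held 0.818 and 1.01 CPM in the controls and 2.04 and 3.01 CPM in Notch2_cKO. Its log2 change of 1.38 ± 0.29 (edgeR adjusted p = 0.0016) was the only one at a receptor gene that passed with each single library left out, without control 2 at an adjusted p of 0.0012. Region 10 at chr8:25546651-25547350, inside the gene, fell from 10.7 and 8.91 CPM to 6.56 and 6.38 CPM (-0.59 ± 0.16, edgeR adjusted p = 0.012). Within 500 kb of Fgfr1, 15 of 84 regions assigned to other genes were higher and 4 lower, with a median log2 change of 0.19.

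Region 7 of Fgfr1 at chr8:25528551-25529050 fell from 3.17 and 3.27 CPM to 1.95 and 1.78 CPM (log2 change -0.77 ± 0.22, edgeR adjusted p = 0.017), and region 3, outside the gene, from 2.19 and 1.73 CPM to 0.956 and 1.39 CPM (-0.83 ± 0.29, edgeR adjusted p = 0.044). The Notch2_cKO libraries were below both controls in each. The most open Fgfr1 regions showed no change past the test: region 8 held 27.4 and 29.6 CPM in the controls and 30.3 and 27.1 CPM in Notch2_cKO, and the region at the lower-numbered end of the gene 25.0 and 25.0 CPM against 24.7 and 20.2 CPM. Without control 2 the adjusted p was 0.013 for region 10, 0.087 for region 7 and 0.051 for region 3. Without control 1 it was 0.164, 0.051 and 0.291, so none of the 3 lower regions passed, and without Notch2_cKO 1 it was 0.061 for region 7 and 0.399 for region 3.

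Fgfr2, whose splice forms receive either Fgf7 and Fgf10 or Fgf2, Fgf9 and Fgf18, had 25 regions, of which 3 rose and 1 fell (median log2 change 0.16). Its surroundings moved alike: of 27 regions assigned to other genes within 500 kb, 5 were higher and 1 lower, with a median of 0.16. The gene lies at chr7:130162451-130266808 on the minus strand, and the region 508 bp past its start held 26.8 and 30.7 CPM in the controls and 30.6 and 21.6 CPM in Notch2_cKO. The groups overlapped there (log2 change -0.12 ± 0.14, edgeR adjusted p = 0.60). Region 20 at chr7:130289001-130289600, 22542 bp before the start, rose from 9.26 and 8.40 CPM to 14.2 and 12.1 CPM (0.59 ± 0.15, edgeR adjusted p = 0.0070).

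Region 15 inside Fgfr2, at chr7:130233701-130234200, fell from 4.06 and 3.14 CPM to 2.05 and 2.09 CPM (log2 change -0.80 ± 0.23, edgeR adjusted p = 0.013). Regions 5 and 25, outside the gene, rose from 1.35 and 1.36 CPM to 3.21 and 1.70 CPM and from 0.895 and 1.02 CPM to 2.08 and 1.31 CPM (log2 changes of 0.97 and 0.91, edgeR adjusted p = 0.016 and 0.033). In both of these Notch2_cKO 1 was the high library, and without it the adjusted p was 0.688 for region 5 and 0.643 for region 25. The most open region, region 12, held 29.2 and 24.8 CPM against 28.9 and 34.7 CPM, with overlapping groups (0.22 ± 0.12, edgeR adjusted p = 0.213). Without control 2 the adjusted p was 0.127 for region 20, 0.0081 for region 15, 0.036 for region 5 and 0.060 for region 25. Region 20 also did not pass without Notch2_cKO 1 (0.056), nor region 15 without Notch2_cKO 1 (0.074) or without control 1 (0.162), nor region 25 without control 1 (0.114).

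**Figure D3:**
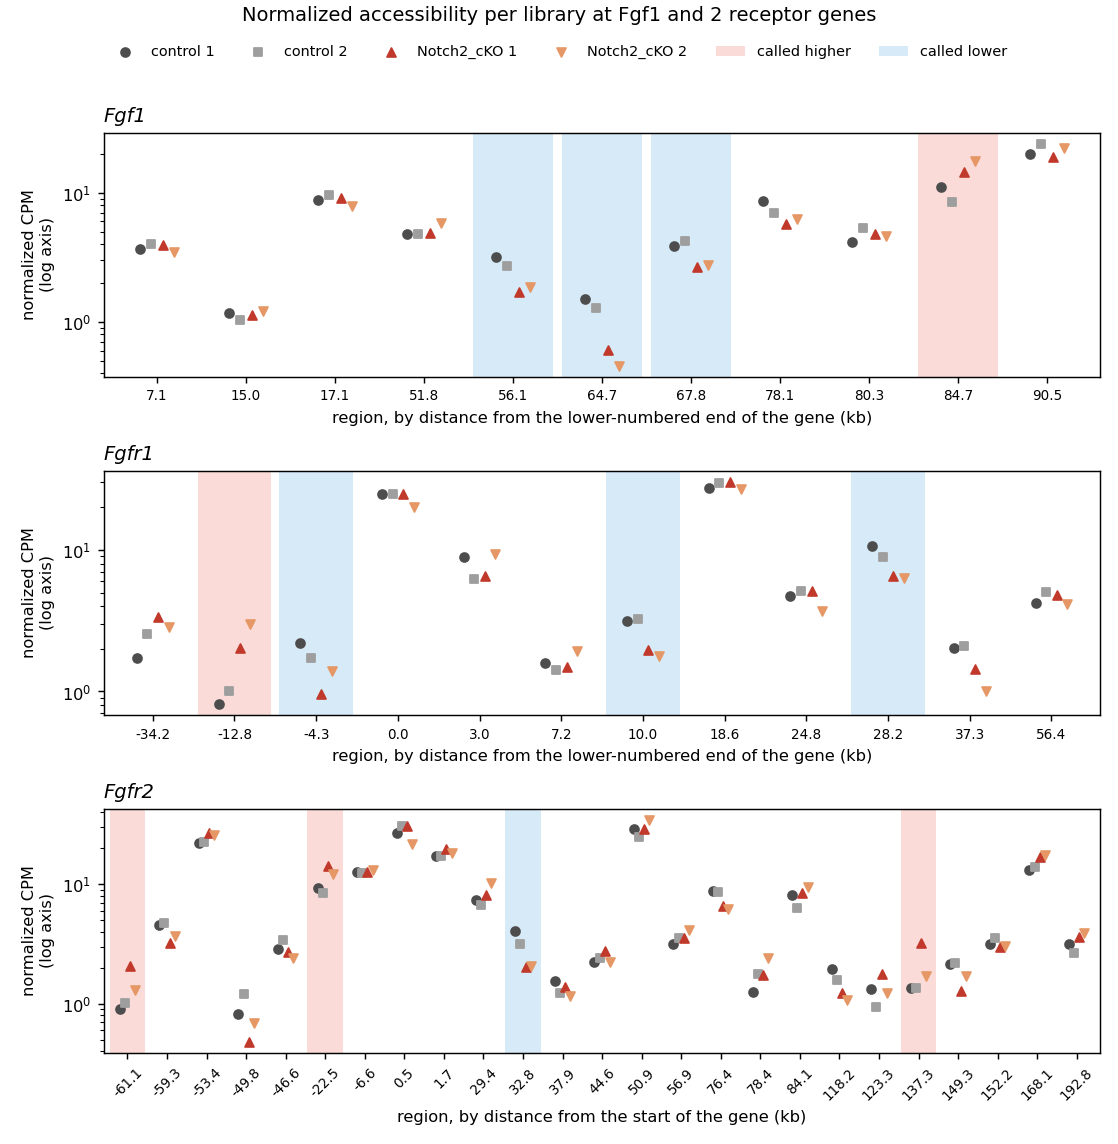
Normalized level (CPM, log axis) of every Fgf1, Fgfr1 and Fgfr2 region in each library, by distance from the start of the gene or, where no strand was given, from its lower-numbered end (kb). Regions called lower number 3 at Fgf1, 3 at Fgfr1 and 1 at Fgfr2, and those called higher 1, 1 and 3.

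Fgfr3 (chr5:33721724-33737068) and Fgfrl1 (chr5:108694229-108706950) had 3 regions each. The start of Fgfr3, a receptor kinase that restrains bone growth, held 23.7 and 23.8 CPM in the controls and 27.0 and 20.7 CPM in Notch2_cKO, on both sides of the controls (log2 change 0.03 ± 0.13, edgeR adjusted p = 0.918). A region 982 bp past the gene, chr5:33737801-33738400, rose from 2.98 and 3.09 CPM to 4.69 and 4.71 CPM (0.63 ± 0.19, edgeR adjusted p = 0.022). It did not pass without control 1 (adjusted p = 0.125), control 2 (0.104) or Notch2_cKO 1 (0.079). The region 79 bp before the start of Fgfrl1 held 79.2 and 72.6 CPM in the controls and 71.9 and 73.6 CPM in Notch2_cKO, the highest level of the 86 regions, and the groups overlapped (-0.06 ± 0.09, edgeR adjusted p = 0.664). With TMM factors in place of loess offsets its log2 change was -0.28 (adjusted p = 0.042), and with median centring it was -0.28 (adjusted p = 0.048). The other 2 Fgfrl1 regions had log2 changes of -0.13 and -0.12, with both Notch2_cKO libraries below both controls, and did not pass.

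Each level is that of a 300 bp window, so window width does not differ between genes. Differences in sequence, such as GC content, were not corrected for. The most open region is also the highest of 25 at Fgfr2 but of only 2 at Fgf9 and Fgf10, so the order is descriptive. By the mean of the 4 libraries, the most open region was at 74.3 CPM for Fgfrl1, 30.6 for Fgf2, 29.4 for Fgfr2, 28.6 for Fgfr1, 23.8 for Fgfr3, 22.1 for Fgf18, 21.6 for Fgf9, 21.3 for Fgf1, 7.49 for Fgf7 and 2.76 for Fgf10. From Fgf2 down to Fgf1 the libraries of neighbouring genes in this order overlapped, apart from Fgfr1 and Fgfr3, whose nearest libraries stood at 27.1 and 27.0 CPM, whereas those of Fgfrl1, Fgf7 and Fgf10 stood apart from their neighbours. The region over the Fgf7 start, which the rule left to Fam227b, had a mean of 14.6 CPM. The limit of 100 kb fell between Fgfr2 region 1 at 88401 bp (3.15, 2.66, 3.60 and 3.94 CPM in control 1 and 2 and Notch2_cKO 1 and 2) and a region 103970 bp from Fgf18 (7.63, 7.89, 10.3 and 9.59 CPM).

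The second comparison took 1 value per gene, the counts of all its regions added together. Summed accessibility was higher at 5 of the 10 genes, all but 1 of them ligands, and lower at 0 by edgeR (0 at an unadjusted p of 0.05, and 0 by DESeq2 and limma). Over all 17770 genes with regions, 10.2% were higher and 8.13% lower by the same edgeR test. For Fgf18 the sum was 86.3 and 85.0 CPM in the controls and 133 and 127 CPM in Notch2_cKO (log2 change 0.60 ± 0.07, edgeR adjusted p = 8.8e-05). For Fgf2 it was 111 and 113 CPM against 158 and 154 CPM (0.48 ± 0.06, edgeR adjusted p = 0.00027). In both genes the gap between the groups was many times that between pools, and both calls held without control 2 (adjusted p values of 4.8e-06 and 0.00011) and with each other library left out.

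Fgf7 summed to 17.4 and 14.4 CPM in the controls and 22.0 and 23.9 CPM in Notch2_cKO (log2 change 0.52 ± 0.13, edgeR adjusted p = 0.013), and the call was lost without control 2 (0.170). The Fgf10 sum rested on few counts, at 3.65 and 4.99 CPM against 6.44 and 6.88 CPM (0.61 ± 0.19, edgeR adjusted p = 0.039, or 0.370 without control 1 and 0.017 without control 2, and 0.079 by DESeq2). Fgfr2 summed to 193 and 196 CPM against 230 and 215 CPM, a log2 change of 0.20 ± 0.06 (edgeR adjusted p = 0.033). This smallest of the 5 changes did not pass without control 2 (0.151), without control 1 (0.262) or without Notch2_cKO 1 (0.094), nor with TMM factors (0.149), median centring (0.174) or DESeq2 (0.213). The sums of Fgf1, Fgf9, Fgfr1, Fgfr3 and Fgfrl1 did not pass, with log2 changes of 0.09, 0.02, -0.0018, 0.11 and -0.13.

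**Figure D4:**
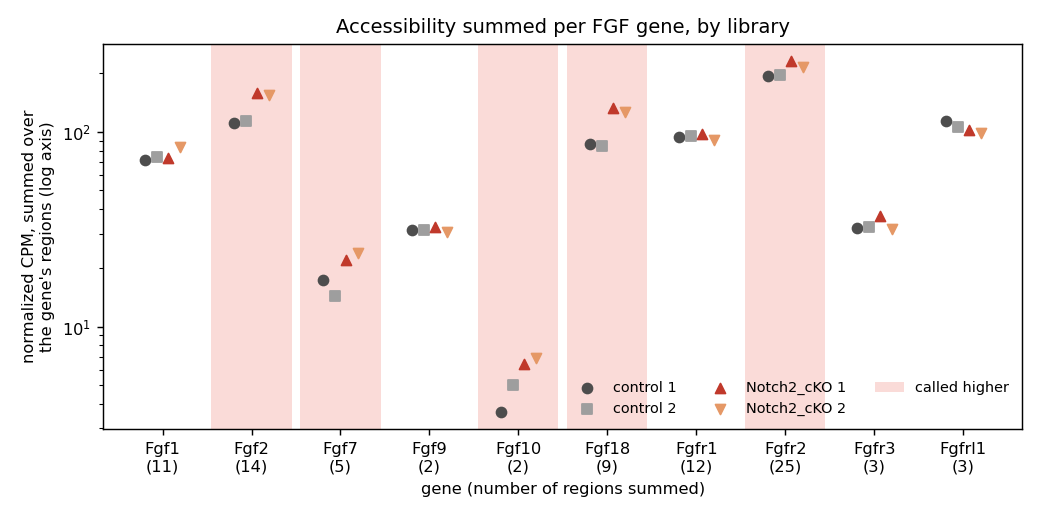
Counts summed over the regions of each gene and then normalized (CPM, log axis), in each of the 4 libraries. The number of regions is given under each gene. Shading marks the 5 genes called higher, where both Notch2_cKO points lie above both control points, from 86.3 and 85.0 to 133 and 127 CPM at Fgf18.

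The third comparison covered the rest of the pathway, in 4 lists of 70 other genes, of which 66 had regions. Their 526 regions moved in both directions: 68 were higher (12.9%, against the 12.5% of all regions) and 67 lower (12.7%, against 11.2%), with a median log2 change of 0.02. At the other FGF genes 16 of 87 regions were higher and 15 lower. Among them Fgf12, an intracellular FGF that binds sodium channels, had 7 higher and 5 lower of 21, and Fgf23, a phosphate-regulating hormone of bone, had 4 higher of 5. At coreceptors, binding proteins and heparan sulfate enzymes 31 of 227 were higher and 34 lower, at transducers 10 of 105 higher and 5 lower, and at feedback inhibitors and targets 11 of 107 higher and 13 lower.

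Among the higher pathway regions of smallest p were those at Sulf2 and Fgf12. A region 17567 bp from Sulf2, which encodes an extracellular enzyme that trims heparan sulfate, rose from 0.383 and 0.366 CPM to 2.48 and 2.08 CPM (log2 change 2.62 ± 0.33, edgeR adjusted p = 1.1e-05). Sulf2 had 7 higher and 1 lower of 19 regions. The Fgf12 region inside the gene rose from 12.8 and 13.8 CPM to 25.4 and 29.3 CPM (1.03 ± 0.13, edgeR adjusted p = 1.2e-05).

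Those of smallest p among the lower regions were at Sulf1, Spred1 and Gpc1. Sulf1, the related sulfatase, had a region inside the gene at chr1:12760701-12761400 that fell from 27.6 and 23.9 CPM to 8.01 and 11.9 CPM (log2 change -1.42 ± 0.16, edgeR adjusted p = 4.1e-06), while over its 24 regions 3 were higher and 4 lower. A region 40521 bp from Spred1, an inhibitor of the Ras cascade, fell from 26.4 and 24.4 CPM to 9.23 and 12.3 CPM (-1.27 ± 0.15, edgeR adjusted p = 4.5e-06). The region 77595 bp from Gpc1, a heparan sulfate proteoglycan of the cell surface, fell from 10.6 and 9.51 CPM to 3.40 and 4.04 CPM (-1.46 ± 0.18, edgeR adjusted p = 6.8e-06). In these 5 regions the groups lay far apart, and each passed without control 2 and in every other fit made for single regions. Dusp6, a phosphatase induced by FGF signalling, had 3 higher and 2 lower of 15 regions, Spry4, a feedback inhibitor, 0 higher and 2 lower of 9, and Etv4, a transcription factor target, 2 higher and 0 lower of 6. Without control 2 the pathway counts were 38 higher and 44 lower, without control 1 they were 50 and 39, and DESeq2 called 34 and 28.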

How the data were processed

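Window counts were deposited for 4 ATAC-seq libraries (678058 windows). Per the labels they are loess normalized with csaw, but the deposited counts were whole numbers whose column totals were 2.44 times apart, so they were treated as counts without normalization. Bowtie2 2.4.5, Picard 2.27.5, SAMtools 1.14, Trim Galore 0.6.7, deepTools and cutadapt are named with build mm10 in the submitters' processing notes. Whether reads were shifted for the transposase, and how peaks were called, is not given in the sources used here.

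Loess offsets were recomputed in the manner of csaw with limma 3.58.1, and edgeR 4.0.16 (R 4.3.3) fitted genotype alone over all 110110 regions (median width 600 bp), with Benjamini-Hochberg adjustment at 0.05. DESeq2 1.42.0 was an alternative. The fit was tested on simulated data. It recovered 3 of 67 changes of 1.5-fold, 43 of 67 of 2-fold and 61 of 66 of 4-fold, with 5 false calls. A region that did not pass may therefore still have changed by 1.5-fold or so. Far fewer regions were changed in the simulation than were called in the data. Its counts were also drawn with the same set spread between libraries for all regions, not one estimated from the data. Recovery in the data may therefore differ, and smaller changes were called there, such as 1.34-fold at Fgf18 region 7. CPM are counts scaled to a common library size after the offsets, and ± is the SE of the log2 change from the fit. Gene sums were fitted over 17770 genes, with loess offsets computed anew from the summed counts. The CPM of a gene sum is therefore not the sum of the CPM of its regions, and its log2 change can differ from theirs for that reason too. A single value in a design of 2 against 2 cannot reach an exact two-sided permutation p below 0.333. Per the labels the replicates are separate pools, and the libraries differed by more than sampling noise.

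Gene positions, promoters and strands came from RefSeq tables of the same assembly, 21896 protein-coding genes. Strand was known for 8 of the 10 FGF genes, through their starts, and not for Fgf1 or Fgfr1. Exons, introns and peak sequences were not analysed here. The members and lists were chosen with earlier results of these data known. Named were all 10 genes, in each the region nearest the start, the most open one and up to 3 regions of smallest p in each direction, and in the pathway list up to 3 genes in each direction, of which 1 is not reported here. Further regions, such as those of Fgf2, Fgfrl1 and Fgfr3 named beside these and the single pathway genes given by counts, were chosen after their values were seen. Alternatives changed the scaling, the test, the filter, the merging, the window, the gene distance, the threshold and the libraries.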

Additional observations from a re-analysis of the deposited data

How the results depend on the processing

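All 30 changed FGF regions kept their direction in the 10 fits made for single regions. With genes within 10 kb, 62 FGF regions remained, of which 11 were higher and 7 lower. The count of higher FGF regions, 23, was 11 by DESeq2, 11 with genes within 10 kb, 13 at an adjusted p of 0.01, 15 without chromosome 11 (chosen after seeing the data), and 13 to 23 with 1 library left out. The count of lower regions, 7, was 0 by DESeq2, 1 at 0.01 and 0 to 9 with 1 library left out. Higher gene sums, 5, were 3 by DESeq2, 2 at 0.01 and 3 to 5 with 1 library left out, and lower sums were 0 in each fit. Pathway regions, 68 higher and 67 lower, were 34 and 28 by DESeq2, 39 and 35 at 0.01, 40 higher with genes within 10 kb, and 38 to 77 higher and 39 to 82 lower with 1 library left out. All regions, 13786 higher and 12329 lower, were 7295 and 5350 by DESeq2, 8527 and 7032 at 0.01, and 8936 to 15496 and 7995 to 14737 with 1 library left out. The cause was not tested, apart from fewer regions or a stricter threshold where the alternative makes them so. With 1 library left out, the group's remaining library is assumed to vary as the other group does. Under TMM factors and median centring the start of Fgfrl1 passed as lower.

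The groups share replicate numbers, but nothing in the labels pairs them, and same-numbered libraries did not deviate together (correlation -0.20). With a replicate block the FGF counts were 18 higher and 6 lower regions and 4 higher gene sums, those of the pathway 62 and 59, and those of all regions 12250 and 10808.

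Values near 0 that did not pass changed sign in some fits. Fgfr1 region 8 was -0.040 with TMM factors, -0.037 with median centring, -0.036 by DESeq2 and -0.062 to 0.10 with 1 library left out. The start of Fgfr3 was -0.0052, -0.0020, -0.0065 and, by limma on log2(CPM + 1), -0.0064, and -0.19 to 0.20 with 1 library left out. With 1 library left out, the other ranges were -0.24 to 0.028 for Fgf1 region 11, -0.0086 to 0.38 for Fgf10 region 1, -0.30 to 0.00052 for the lower-numbered end of Fgfr1 and -0.41 to 0.10 for the start of Fgfr2. For the gene sums they were -0.030 to 0.050 at Fgf9, -0.052 to 0.045 at Fgfr1 and -0.015 to 0.20 at Fgfr3.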
